A study of Mus musculus with 2 samples.

Results

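The genes described here encode the subunits, alternative subunits, assembly chaperones and activators of the proteasome. They were taken by name: every protein-coding gene whose symbol starts with Psma, Psmb, Psmc, Psmd, Psme, Psmf or Psmg followed by a number. The rule found 50 genes among 22015 protein-coding genes outside the mitochondrial genome. By role they fell into 7 alpha and 7 beta genes of the standard 20S core, 3 immunoproteasome beta genes, 2 tissue-restricted core genes, 6 ATPase and 11 non-ATPase genes of the 19S cap, 7 assembly chaperones and 6 activators or inhibitors. The remaining member, Psmc3ip, encodes a meiotic recombination factor that shares only the prefix, and it was kept out of every role group. A further 4 symbol matches are annotated as pseudogenes and were not members.

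Total RNA was sequenced from the gastrocnemius, a calf muscle, of 4-day-old male B6CASTF1/J mice, 2 in all, with 1 library per animal (replicates 1 and 2). Both animals belong to 1 group, and the labels name no treatment, no second genotype and no second age. The data therefore give levels, the spread between the animals and comparisons among genes, and no test between conditions: an exact sign-flip test on 2 values cannot go below p = 0.5. Counts assigned to annotated genes summed to 35281187 in replicate 1 and 32301531 in replicate 2. Skeletal muscle markers were abundant in both libraries, with a summed level of 37871 and 35598 TPM (a relative abundance of transcripts that is corrected for length), and all 7 were above 1 TPM. Markers of epidermis summed to 9.60 TPM in replicate 1 and 746 TPM in replicate 2, so the second sample stands apart from the first in this respect. The tissue is a mixture, so fewer cells of a type and less RNA per cell cannot be told apart, nor can the animal be told apart from its dissection and its library.

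The proteasome degrades proteins that carry ubiquitin chains. Its 20S core is a barrel of alpha rings around beta rings, and the beta subunits Psmb5, Psmb6 and Psmb7 carry the proteolytic sites, each with a catalytic threonine that becomes the first residue when the propeptide is removed. The 19S cap recognises ubiquitin, removes the chain and, through its ring of ATPases, unfolds the substrate and threads it into the core. Interferon induces the alternative catalytic subunits Psmb8, Psmb9 and Psmb10, which replace Psmb5, Psmb6 and Psmb7 in the immunoproteasome, and the PA28 activator made of Psme1 and Psme2. In skeletal muscle the ubiquitin-proteasome pathway is known for the turnover of myofibrillar proteins.

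The 6 catalytic genes are shown first because the main contrast among the members runs between them. The lines give the first 60 bases that encode each mature catalytic chain, taken from GENCODE M21 transcripts, 5′ to 3′, with the codon of the catalytic threonine in capitals; each standard gene is followed by its interferon-inducible counterpart.
Psmb5: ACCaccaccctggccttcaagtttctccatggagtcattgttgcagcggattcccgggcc
Psmb8: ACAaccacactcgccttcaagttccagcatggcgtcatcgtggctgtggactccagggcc
Psmb6: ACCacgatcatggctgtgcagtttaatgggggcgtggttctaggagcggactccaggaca
Psmb9: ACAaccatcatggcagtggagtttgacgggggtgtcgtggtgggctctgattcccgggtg
Psmb7: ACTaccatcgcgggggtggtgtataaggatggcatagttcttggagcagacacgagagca
Psmb10: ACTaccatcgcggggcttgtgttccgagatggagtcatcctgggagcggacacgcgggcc

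The counterparts are similar but distinguishable at the length of a read. Of these 60 bases, Psmb8 and Psmb5 share 47, Psmb9 and Psmb6 share 41, and Psmb10 and Psmb7 share 43. Over the whole mature coding sequence the identity was 68.0% for Psmb8 and Psmb5, 64.5% for Psmb9 and Psmb6 and 63.1% for Psmb10 and Psmb7, and the longest shared run was 18, 11 and 15 bases. No pair shared a stretch of 31 bases anywhere in its transcripts. Here and below, such words were compared in the sense orientation only, without reverse complements. For the members as a whole, a median of 1.17% of all 31-base words also occurred in another gene, and 35 of 50 members were under 5%. The exceptions over 50% were Psme2b at 78.4%, Psmb5 at 71.7% and Psma5 at 58.7%; Psmb5 shared 59.8% of its words with Gm3375 and Psma5 46.2% with Gm8394, so the counts of these genes depend on how reads were divided among the copies. Of the 4 pseudogenes, Psmb7-ps2 stood at 0.07 and 0.19 TPM in the alignment-based table, where Psmb5-ps, Psmb6-ps and Psmb6-ps2 had 0 counts in both libraries. The second table, made directly from reads, listed Psmb5-ps at 0.20 TPM in replicate 1 and Psmb6-ps2 at 0.41 TPM in replicate 2. It gave Psmb6-ps 0 in both libraries.

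Proteasome genes were among the more abundant messages of the muscle. Of the 50 members, 46 stood at 1 TPM or more in both libraries, against 55.2% of protein-coding genes outside the mitochondrial genome. Together the members held 2645 TPM in replicate 1 and 2499 TPM in replicate 2. This was 0.616% ± 0.0220 (SD, n = 2) of the TPM of protein-coding genes outside the mitochondrial genome, whose own transcripts were left out of that total. The 4 members below 1 TPM in at least 1 library were Psma8, Psmb9, Psmb11 and Psme2b. The plot of levels by role shows the standard core and cap genes above the chaperones, with Psmb10 within the chaperones' range and Psmb8, Psmb9 and Psma8 below it.

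**Figure D1:**
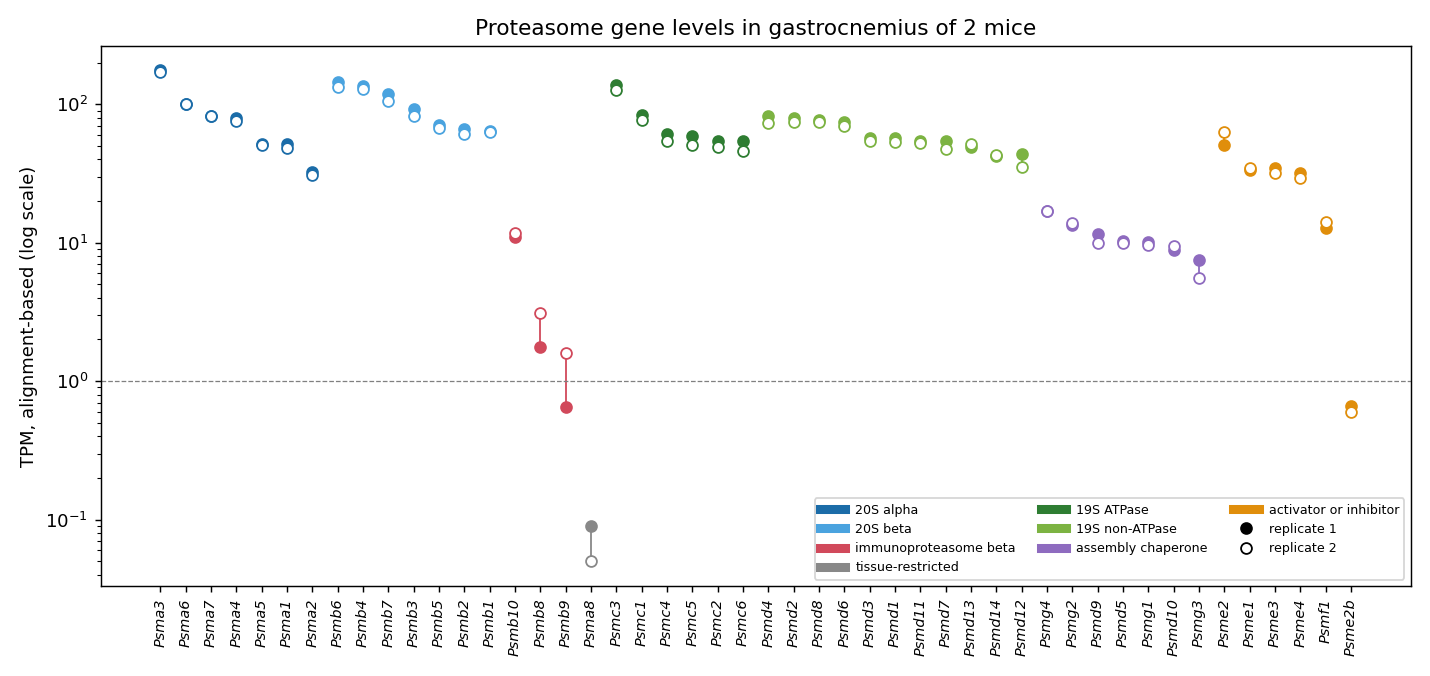
TPM from the alignment-based gene table (log axis) for every member with a role except Psmb11, which had 0 counts, ordered within each role by mean level; filled circles are replicate 1, open circles replicate 2, and the dashed line marks 1 TPM. The 31 standard core and cap genes lie between 30.6 and 175 TPM, while Psmb8 and Psmb9 lie between 0.65 and 3.10 TPM and Psma8 below 0.1 TPM.

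The median of the 14 standard 20S genes was 80.5 and 78.6 TPM in the libraries (79.5 ± 1.39, SD, n = 2). Their median rank was at the 96.4th percentile of protein-coding genes outside the mitochondrial genome. Among the alpha subunits, which form the outer rings and gate the channel, Psma3 was highest, at 175 TPM in the first library and 171 in the second. Psma2 was lowest, at 32.5 and 30.6 TPM, and the ratio of highest to lowest in replicate 1 was 5.40. Between them, Psma6 stood at 101 and 99.6 TPM, Psma7 at 82.0 and 82.6, Psma4 at 79.1 and 75.1, Psma5 at 52.0 and 50.5, and Psma1 at 51.3 and 48.0. The order of the 7 alpha genes was the same in both animals. The read-based table exchanged Psma7 with Psma4 and Psma5 with Psma1, so the order of these neighbours is not resolved.

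The 7 beta genes lay closer together, with a highest-to-lowest ratio of 2.28 in replicate 1. Psmb6, the caspase-like catalytic subunit, was highest, at 146 and 133 TPM, and Psmb4, a non-catalytic subunit, followed at 134 and 128 TPM. Psmb7, the trypsin-like subunit, stood at 119 and 106 TPM. Psmb5, the chymotrypsin-like subunit, stood at 70.6 and 67.7 TPM, in both libraries below Psmb6 and Psmb7 by more than the difference between the animals. Psmb3 was at 92.5 and 82.0 TPM, Psmb2 at 66.7 and 60.7, and Psmb1 at 63.8 and 62.7, the lowest mean of the group. In the read-based table Psmb7 stood above Psmb4, and Psmb5 was the lowest. The medians of the beta and alpha genes differed by 0.18 ± 0.07 on the log2 scale (SD, n = 2).

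The median of the 17 genes of the 19S cap was 57.2 and 53.4 TPM (55.3 ± 2.71, SD, n = 2). Psmc3 was the highest ATPase, at 138 and 128 TPM. The other ATPases were lower: Psmc1 stood at 83.4 and 76.5 TPM, Psmc4 at 61.0 and 54.3, Psmc5 at 59.3 and 50.6, Psmc2 at 54.5 and 49.1, and Psmc6 at 54.7 and 46.2. Psmc2 and Psmc6 changed places between the animals, so their order is not resolved. The non-ATPase genes spanned the narrowest range of the core and cap groups, a ratio of 1.93 between highest and lowest in replicate 1. Psmd4, a ubiquitin receptor, was highest by its mean, at 81.6 and 73.4 TPM, and Psmd2, a scaffold of the cap's base, lay beside it at 79.5 and 74.0 TPM. Psmd8 stood at 76.4 and 74.7 TPM and was highest in replicate 2 and in the read-based table, so the order at the top is not resolved. Psmd12, a subunit of the lid, was lowest, at 43.7 and 35.0 TPM, next to Psmd14, the deubiquitinase of the lid, at 42.3 and 42.8 TPM. The lowest gene was Psmd14 in replicate 1 and Psmd12 in replicate 2. The remaining 6 non-ATPase genes lay between 47.6 and 74.9 TPM.

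Core genes stood above cap genes once length was taken into account. The log2 ratio of the 20S median to the 19S median was 0.49 in replicate 1 and 0.56 in replicate 2 (0.52 ± 0.05, SD, n = 2), or 1.44-fold. The second quantification, made directly from the reads, gave 0.58 ± 0.09. Without division by length the ratio turned to -0.26, since the core genes are shorter: the median length of the leading transcript was 1165 nt for alpha and 899 nt for beta genes, against 1614 nt for the ATPases and 1581 nt for the non-ATPase genes. The medians of the ATPases and the non-ATPase genes of the cap differed by 0.03 ± 0.08 on the log2 scale in the alignment-based table, less than the spread between the animals, and by 0.20 ± 0.03 in the read-based table, with the ATPases higher. Across the 31 standard core and cap genes, log2 TPM of the animals correlated with r = 0.99 (rho = 0.97), and the log2 of the mean TPM of the alignment-based and read-based tables with r = 0.91 (rho = 0.85); these are correlations across genes of the same libraries, and genes are not independent replicates.

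Immunoproteasome genes were detected at low levels. Psmb8 stood at 1.77 TPM (47 counts) in replicate 1 and 3.10 TPM (82 counts) in replicate 2. Psmb9 stood at 0.65 TPM (21 counts) and 1.59 TPM (34 counts). Psmb10 was the highest of the 3, at 10.9 TPM (212 counts) and 11.8 TPM (217 counts). Each was below its standard counterpart in both animals, with no overlap. On the log2 scale (TPM plus 0.1), Psmb8 was -5.24 and -4.41 relative to Psmb5 (-4.82 ± 0.59, SD, n = 2), a 28.3-fold lower level. Psmb9 was -7.60 and -6.30 relative to Psmb6 (-6.95 ± 0.92), or 124-fold lower. Psmb10 was -3.43 and -3.15 relative to Psmb7 (-3.29 ± 0.20), or 9.79-fold lower. The interferon-inducible forms together held 3.83% of the TPM of the 6 catalytic genes in replicate 1 and 5.12% in replicate 2. The read-based table gave 4.41% and 5.30%. Counted over protein-coding transcripts only, an alternative chosen after the data were seen, the log2 ratio was -5.72 for Psmb8 to Psmb5, -7.73 for Psmb9 to Psmb6 and -4.92 for Psmb10 to Psmb7. In the read-based table Psmb9 was -6.30 relative to Psmb6, or 78.8-fold lower.

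Immunoproteasomes are best known from cells of the immune system, whose markers were measured beside them. The 10 macrophage and leukocyte markers summed to 76.5 TPM in replicate 1 and 87.0 TPM in replicate 2, with Ptprc at 2.27 and 3.23 TPM and Cd3e at 0.43 and 0.82 TPM. Their part in the levels of Psmb8, Psmb9 and Psmb10 was not tested.

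The 2 tissue-restricted core genes were at or near 0. Psma8, the testis form that takes the place of Psma7, had 4 and 2 counts, or 0.09 and 0.05 TPM, against 82.0 and 82.6 TPM for Psma7. Psmb11, the catalytic subunit of the thymic cortex, had 0 counts in both libraries, and a limit of 3 counts corresponds to 0.0247 TPM in the first and 0.0265 TPM in the second. The read-based table listed Psmb11 at 0.138 and 0.219 TPM. Testis markers summed to 0.05 and 0.16 TPM, with Sycp3 at 0, and the thymic epithelial markers to 0.08 and 0.66 TPM. Of the latter, Foxn1 had 0 and 50 counts and Prss16 4 and 3, so the higher second sum came from Foxn1 alone. Epidermis markers were also higher in replicate 2 (9.60 and 746 TPM), and which cells gave the Foxn1 counts was not tested.

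**Figure D2:**
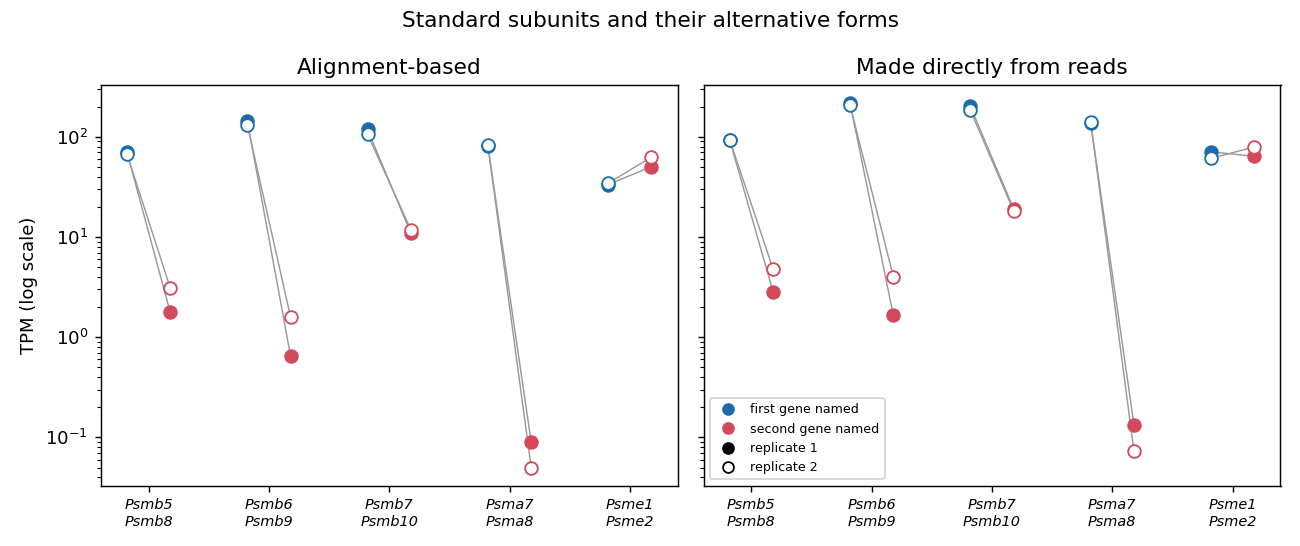
TPM (log axis) of 5 pairs of a standard gene (blue) and its alternative form or partner (red), in the alignment-based table on the left and the read-based table on the right; filled circles are replicate 1, open circles replicate 2, and lines join the values of 1 library. Psmb8, Psmb9, Psmb10 and Psma8 lie below their counterparts in both libraries of both tables, while Psme1 and Psme2 lie within 0.86 of each other on the log2 scale.

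Assembly chaperones, which act on precursors and are not part of the finished particle, stood below the core and cap genes. Their median was 10.1 ± 0.290 TPM (SD, n = 2), 7.77-fold below the 20S median. Psmg4 was highest, at 17.0 TPM in both libraries, and Psmg3 lowest, at 7.56 and 5.57 TPM. Psmg1 and Psmg2, which form a heterodimer that guides the alpha ring, stood at 10.04 and 9.64 TPM and at 13.4 and 13.9 TPM. The chaperones of the 19S base, Psmd5, Psmd9 and Psmd10, lay between 8.83 and 11.6 TPM. In the alignment-based table all 7 chaperones were below all 31 standard core and cap genes in both libraries. In the read-based table Psmg4 stood at 30.6 and 38.0 TPM and Psma2 at 33.4 and 31.8 TPM. There Psmg4 was above Psma2 in replicate 2.

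Activators were more abundant than the chaperones, with 1 exception. Psme1 stood at 33.4 and 34.5 TPM, and Psme2, its partner in PA28, at 50.4 and 62.8 TPM. Psme3, the nuclear PA28 gamma, stood at 34.5 and 31.8 TPM, and Psme4, the large PA200 activator, at 32 and 29.1 TPM. Psmf1, the inhibitor PI31, was lower, at 12.8 and 14.1 TPM. The exception, Psme2b, stood at 0.66 and 0.60 TPM, and 76.5% of its 31-base words occur in Psme2, so its counts are uncertain. The PA28 genes Psme1 and Psme2 are interferon-inducible like Psmb8, Psmb9 and Psmb10, but stood above Psmb10, the highest of those, in both libraries. The ratio of Psme2 to Psme1 depended on the quantification: 0.73 ± 0.19 on the log2 scale in the alignment-based table, 0.11 ± 0.37 in the read-based table and -0.10 in counts not divided by length. Psmc3ip stood at 2.51 and 2.54 TPM, and its leading transcript, Psmc3ip-202, is annotated as a retained intron.

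Genes that work with the proteasome but lie outside the naming rule were examined from a list. All 17 cofactors and partners found were above 1 TPM in both libraries, with a median of 36.1 ± 2.14 TPM (SD, n = 2). Vcp, the segregase that extracts ubiquitinated proteins, was highest at 125 ± 4.13 TPM, followed by the proteasome adaptor Ecpas at 75.3 ± 2.98 and the shuttle factor Rad23b at 61.5 ± 0.969. Sem1, the smallest subunit of the 19S lid, stood at 33.5 ± 0.679 TPM, the ubiquitin receptor Adrm1 at 50.6 ± 3.66, and Pomp, the maturation factor of the core, at 54.7 ± 3.63. Of the 10 genes of transcriptional control, all above 1 TPM, Nfe2l1, the factor that induces proteasome genes when the proteasome is inhibited, was highest at 80.6 ± 3.60 TPM. Nfyc followed at 22.2 ± 0.658 and Ngly1, which processes the Nfe2l1 protein, at 21.04 ± 1.34; Ddi2, the protease that cleaves it, stood at 18.3 ± 3.02 TPM. Of 11 interferon-inducible genes of antigen processing, 10 were above 1 TPM in both libraries, with a median of 7.18 ± 0.346 TPM. B2m was highest at 72.1 ± 5.38 TPM, with H2-D1 at 20.6 ± 3.41 and H2-K1 at 19.8 ± 5.68; Nlrc5 was at 0.97 ± 0.325. Of the genes that encode ubiquitin, Ubb stood at 487 ± 16.5 TPM and Rps27a at 433 ± 29.2 TPM, both above every proteasome gene in both libraries.

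The animals were compared gene by gene in expected counts after trimmed-mean (TMM) scaling, for the 44 members with a mean count of 100 or more. None was over 1.5-fold apart, against 3.99% of the 12421 genes compared in the same way (3.13% higher and 0.853% lower in replicate 2). Within that range most members were slightly lower in replicate 2: 36 of 44 were lower, against 52.2% of all genes, with a median log2 ratio of -0.12 against -0.01. The 95% counting interval lay below 0 for 24 of 44 members, against 23.1% of all genes, and above 0 for 1 member, against 19.7%. These intervals cover counting error only and leave out the spread among animals.

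The lower values ran through the standard core and cap. Of 31 core and cap genes, 30 were lower in replicate 2 by TMM and 21 by scaling to the ERCC spike-ins, where 35.4% of all genes were lower. All 6 ATPases were lower with intervals below 0 under each of the 4 scalings run and in the read-based counts, with a median of -0.19 by TMM and -0.11 by spike-ins. The 14 standard 20S genes were all lower by TMM, but only 8 of them by spike-ins. Psmd13 was the exception by TMM, at 0.04 with an interval from -0.06 to 0.13. Of the members farthest from the median, Psmd12 had 2234 and 1595 counts, a log2 ratio of -0.40 with an interval from -0.50 to -0.31, and the chaperone Psmg3 had 191 and 132 counts, a ratio of -0.45 from -0.78 to -0.12. Both intervals stayed below 0 under each of these alternatives. Skeletal muscle markers moved the same way: 7 of 7 were lower in replicate 2, with a median of -0.14. Their part in the result was not tested.

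**Figure D3:**
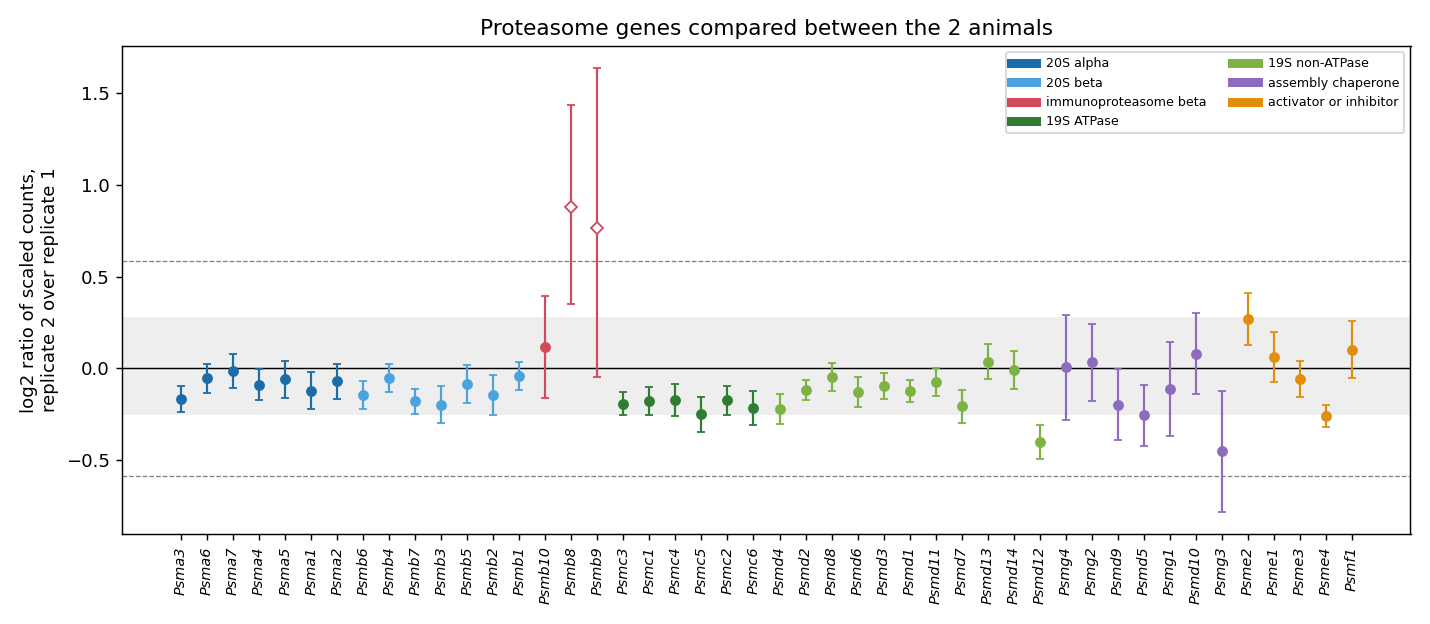
Log2 ratio of scaled counts, replicate 2 over replicate 1, for the 44 members with a mean count of 100 or more (circles; Psmc3ip falls below this count) and for Psmb8 and Psmb9 (open diamonds, lower counts); bars are 95% counting intervals, the grey band spans the 10th to 90th percentile of all genes compared (-0.25 to 0.27), and dashed lines mark 1.5-fold. Core and cap genes sit just below 0, and Psme2, Psmb8 and Psmb9 sit highest.

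The 5 interferon-inducible members had ratios above 0, but the interval lay above 0 for Psme2 and Psmb8 only. Psme2 had 762 and 867 counts, a log2 ratio of 0.27 with an interval from 0.13 to 0.41, the only member of the 44 whose interval lay above 0 by TMM. Psmb10 was at 0.12, with an interval from -0.16 to 0.40, and Psme1 at 0.06, from -0.08 to 0.20; neither interval lay clear of 0. Below a mean count of 100, Psmb8 had a ratio of 0.88 with an interval from 0.35 to 1.44 and Psmb9 one of 0.76 from -0.05 to 1.64. Among the listed genes of antigen processing, Tap1, B2m, H2-K1 and H2-D1 had intervals above 0 and none of the 10 compared had an interval below 0; Tap1 stood at 2.21 and 2.81 TPM and was over 1.5-fold higher in scaled counts. Of the leukocyte markers, 9 of 10 had higher values in replicate 2, with intervals above 0 for 2 of the 7 compared, and all 6 epidermis markers were over 1.5-fold higher. Their part in the result was not tested.

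The genes are spliced into several annotated transcripts, and the transcript tables show which of them held the gene's output. For 49 members with any output, 276 transcripts were annotated, a median of 5 per gene. The leading transcript, the one with the highest mean share, held a median of 81.7% of its gene and was annotated as protein-coding in 46 of 49 genes. It held 80% or more in 28 genes. Under 50% was held in 8 genes: Psma3, Psmb4, Psmb9, Psmb10, Psmc6, Psmd9, Psmd13 and Psme2. The leader was not protein-coding for Psmb10 (Psmb10-203, a processed transcript with 28.9% and 44.4%), for Psmb9 (a target of nonsense-mediated decay with 19.98% and 36.5%) and for Psmc3ip. In replicate 1, Psmb10-203 was below a retained-intron transcript at 35.9% and the coding Psmb10-201 at 29.3%. The read-based table had Psmb10-201 as leader at 41.7%. Likewise in replicate 1, the leader of Psmb9 was below the coding Psmb9-204 at 43.6% and a retained intron at 30.9%. For Psmb9 the read-based table had the coding Psmb9-203 as leader at 36.8%. The shares of Psmb8, Psmb9 and Psmb10 rest on few counts and differed between the animals: Psmb8-203, the coding leader of Psmb8, held 63.0% in replicate 1 and 43.0% in replicate 2.

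Highly expressed members also had output outside coding transcripts. In Psmb4, the coding transcript Psmb4-201 held 47.0% and 49.1%, and the retained introns Psmb4-202 and Psmb4-203 held 32.4% and 30.9% and 19.3% and 17.98%. In Psmc6, the coding Psmc6-201 held 47.6% and 49.0%, and Psmc6-208, a target of nonsense-mediated decay, 21.9% and 26.6%. The read-based table gave Psmb4-203 and Psmc6-208 0 in both libraries. In Psmd13, Psmd13-208 (coding) held 39.0% in both libraries and Psmd13-211 (nonsense-mediated decay) 33.0% and 37.8%. Some such shares belonged to very short transcripts. Psma3-208 is 312 nt long and held 29.0% and 38.0% of Psma3. Psme2-203, a retained intron of 185 nt, held 26.3% and 30.2% of Psme2. TPM divides counts by length, and the part of length in these shares was not tested.

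The quantifications placed the output on different transcripts for part of the family. The leader was the same in both for 36 genes and another for 13. The median coding share was 93.8% in the alignment-based and 84.5% in the read-based table. Psma3 differed most: 71.5% of it was coding by alignment, led by Psma3-204, and 2.37% in the read-based table, which gave Psma3-204 and Psma3-208 0 and placed 45.3% on Psma3-201 and 44.6% on a further transcript, both annotated as targets of nonsense-mediated decay. Psmd2 was 95.9% coding by alignment and 45.4% in the read-based table, and Psmc4 88.7% and 43.8%, whereas Psme2 was 56.7% and 77.5%. Gene-level values were less affected, and Psma3 remained the highest alpha gene in both. The read-based TPM was a median of 1.68 times the alignment-based TPM for members. For expressed protein-coding genes outside the mitochondrial genome it was 1.61 times. Psmc6, at 2.68 times, and Psma2, at 1.03 times, were farthest apart among the standard core and cap genes.

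**Figure D4:**
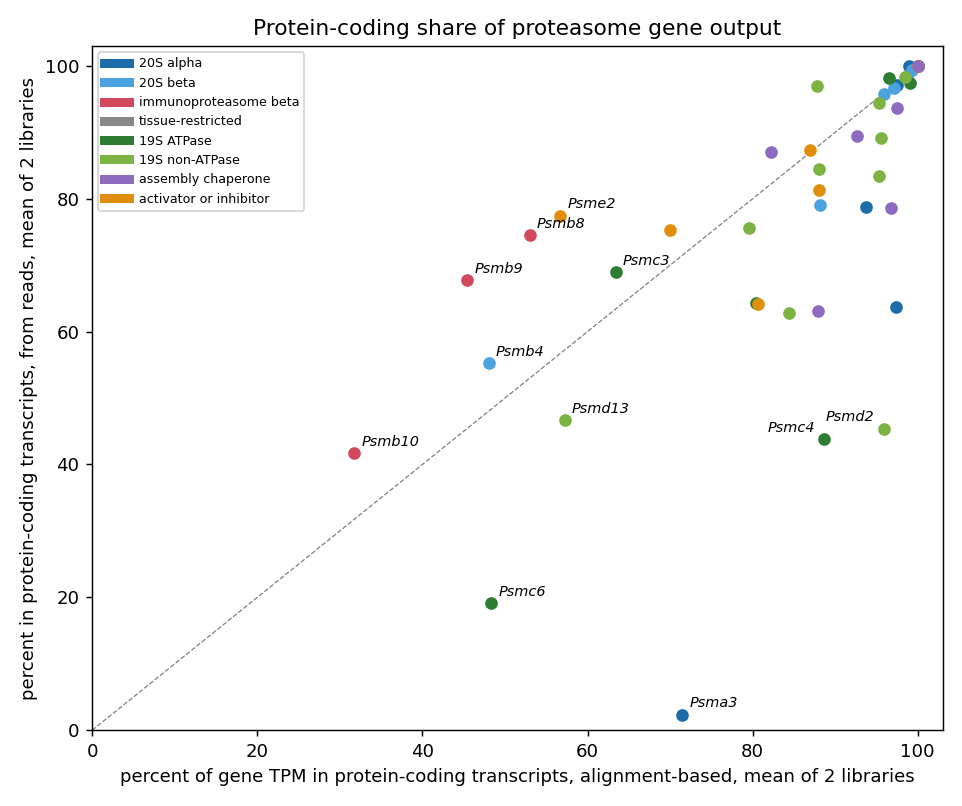
Percent of each gene's TPM held by protein-coding transcripts, mean of both libraries, in the alignment-based table (horizontal axis) against the read-based table (vertical axis), coloured by role; the dashed line marks equal shares. Many genes lie above 80% on both axes, and Psma3 (71.5% against 2.37%), Psmc6, Psmc4 and Psmd2 lie far below the line.

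In the genome the members are scattered over 16 chromosomes, with 10 on chromosome 11 and 6 each on chromosomes 2 and 14 (mm10). There were 3 pairs within 10 kb. Psmb9 (chr17:34181987-34187764, minus strand) and Psmb8 (chr17:34197721-34201454, plus strand) lie 9956 bases apart in the major histocompatibility complex, and the start of Psmb9 lies 211 bases from that of Tap1, which is transcribed the other way. Psme1 (chr14:55578123-55581529, plus strand) and Psme2 (chr14:55587441-55591113, minus strand) lie 5911 bases apart, and Psmb5 (chr14:54614119-54618022, minus strand) and Psmb11 (chr14:54621433-54629556, plus strand) 3410 bases apart. A protein-coding gene on the other strand starting within 1000 bases was found for 11 of 50 members (22.0%). The share was 9.49% for protein-coding genes outside the mitochondrial genome. Other annotated genes overlap 24 of 50 members, 19 of them on the opposite strand, and whether the counting used strand is not stated, so the counts of those members are uncertain to that extent.

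Promoter sequence was available for 42 of 50 members, as windows from 250 bases before to 50 bases after the RefSeq start (GRCm38.p6). The windows below are examples from the standard core, the cap and PA28, and no single rule gave this choice. The windows of Psmb10 and Psmd12, also examined, held no match in their 150 bases and are not printed. The window of Psme2 is printed although its 150 bases held no match either. Each line gives 150 bases, 5′ to 3′ on the gene's strand, ending just before the first annotated transcript start; capitals mark matches, on either strand, to TGANNNNGC (the core of the antioxidant response element bound by Nfe2l1 and Nfe2l2), CCAAT (NF-Y), the interferon-stimulated response element, CCGGAAG (ETS factors) or the palindromic element of nuclear respiratory factor 1.
Psma3, chr12:70974471-70974620, plus strand: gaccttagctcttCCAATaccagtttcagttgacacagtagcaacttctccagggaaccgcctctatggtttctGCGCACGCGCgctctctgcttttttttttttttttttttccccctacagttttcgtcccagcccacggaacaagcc
Psmb5, chr14:54618023-54618172, minus strand: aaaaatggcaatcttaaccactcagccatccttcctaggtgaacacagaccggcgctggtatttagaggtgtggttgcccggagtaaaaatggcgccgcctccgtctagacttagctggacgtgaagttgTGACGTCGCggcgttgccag
Psmb6, chr11:70525207-70525356, plus strand: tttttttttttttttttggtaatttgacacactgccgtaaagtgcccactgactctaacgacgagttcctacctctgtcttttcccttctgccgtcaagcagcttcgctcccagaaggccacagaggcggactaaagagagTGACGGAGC
Psmc1, chr12:100110004-100110153, plus strand: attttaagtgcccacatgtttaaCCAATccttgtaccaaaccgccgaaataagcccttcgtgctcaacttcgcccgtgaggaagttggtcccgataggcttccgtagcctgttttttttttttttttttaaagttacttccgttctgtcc
Psmd4, chr3:95042615-95042764, minus strand: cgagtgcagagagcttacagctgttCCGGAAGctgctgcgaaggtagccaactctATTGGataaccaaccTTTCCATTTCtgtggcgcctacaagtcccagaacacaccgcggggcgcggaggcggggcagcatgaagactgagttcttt
Psme2, chr14:55591114-55591263, minus strand: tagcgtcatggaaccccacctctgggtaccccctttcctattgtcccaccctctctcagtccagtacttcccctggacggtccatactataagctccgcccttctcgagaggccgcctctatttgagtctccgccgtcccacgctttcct

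In the full windows, the ETS letters CCGGAAG were found in 15 of 42 members (35.7%), against 8.86% of all 32851 promoter windows and 12.9% of protein-coding genes. They were in 6 of 9 non-ATPase and 3 of 5 ATPase genes of the cap and in 0 of 4 standard beta genes with a window. TGANNNNGC was found in 24 of 42 members (57.1%), against 41.3% of windows and 45.5% of protein-coding genes, and in all 4 standard beta genes with a window. The element of nuclear respiratory factor 1 was in 7 members (16.7%), against 4.60% of windows and 7.17% of protein-coding genes, and the interferon-stimulated response element in 5 (11.9%), against 3.44% and 3.94%, including Psme1 and Psmd4 and none of Psmb8, Psmb9 and Psmb10. CCAAT was in 15 members (35.7%), against 37.4% of windows and 42.3% of protein-coding genes, with 5 of 7 alpha genes among them. The median GC content of the members' windows was 57.3%, against 56.3% for protein-coding genes, and the ratio of observed to expected CpG was 0.75 against 0.58. A match is only a run of letters: whether any factor was bound was not measured here.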

How the data were processed

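Gene tables deposited for each library hold expected counts, TPM and, for transcripts, the percent of the gene held by each transcript, with RSEM column names, per the file headers. A second deposited transcript table, made directly from reads, holds estimated counts and TPM with kallisto column names, per the file headers. Per the deposited notes, mm10 and GENCODE M21 were used; no source used here gives the aligner, the program versions or the use of strand. Per the labels, 300 ng of RNA entered each library and ERCC spike-ins were added.

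Read-based values were summed over transcripts of a gene. Expected counts were rounded for scaling by TMM (edgeR 4.0.16, R 4.3.3) and for DESeq2 1.42.0 size factors. Between-library log2 ratios used a prior count of 0.5, 95% Clopper-Pearson (exact) intervals for how the counts split between the libraries and a mean count of at least 100; a 1.5-fold difference was the call, and the calculation was tested on simulated data. Pair ratios used TPM plus 0.1. The limit for a count of 0 was 3 counts. Without molecular identifiers, these intervals and the limit describe counting error and nothing else.

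Members, role groups, gene lists, markers and the rule for named genes were chosen with earlier results of these data known. The rule named the highest and lowest gene of each role, all pair members, the 3 members farthest from the median ratio, members with a minor or non-coding leading transcript, and the 3 highest genes of each related list with any under 1 TPM; further members and listed genes were named for their role. The levels of some genes that the rule names are not reported here. Paaf1, on the list of partners, could not be matched. Transcript sequences came from GENCODE M21 and the start of each mature chain was found by translating the longest open reading frame; promoters came from RefSeq (GRCm38.p6).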

Additional observations from a re-analysis of the deposited data

How the results depend on the processing

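No paired analysis was possible because there is 1 group. With 2 libraries, leaving out either gave the value of the other: 78.6 to 80.5 TPM for the 20S median, 53.4 to 57.2 TPM for the 19S median, 0.49 to 0.56 for their log2 ratio, -5.24 to -4.41 for Psmb8 to Psmb5, -7.60 to -6.30 for Psmb9 to Psmb6, -3.43 to -3.15 for Psmb10 to Psmb7, -9.11 to -8.75 for Psma8 to Psma7 and 0.59 to 0.86 for Psme2 to Psme1. In the read-based table the medians were 145 TPM (20S) and 96.8 TPM (19S), the log2 ratio 0.58, Psma8 to Psma7 -9.44 and Psme2 to Psme1 0.11. Rescaling TPM over protein-coding genes outside the mitochondrial genome gave medians of 190.5 and 132 TPM. In counts not divided by length, the 20S to 19S ratio turned to -0.26 and the Psme2 to Psme1 ratio to -0.10, by the construction of that alternative, and Psmb10 to Psmb7 was -3.98. A pseudocount of 1 TPM gave -6.28 for Psma8 to Psma7. Over protein-coding transcripts only, chosen after the data were seen, the medians were 72.1 and 52.0 TPM, their log2 ratio 0.47, Psmb8 to Psmb5 -5.72, Psmb9 to Psmb6 -7.73, Psmb10 to Psmb7 -4.92 and Psme2 to Psme1 0.22. Without members sharing 5% or more of their 31-base words with another gene, also chosen after the data were seen, the 20S median was 82.3 TPM and the ratio 0.57. With a mean count of 10 or more in place of 100, 2 members, Psmb8 and Psmb9, were over 1.5-fold apart. The share of all genes past 1.5-fold at that lower count was not computed, so this count has no background. The interval of Psmb9, from -0.05 to 1.64, included 0. Scaling moved the median log2 ratio of all genes from -0.01 (TMM) to 0.07 (spike-ins), and that of members from -0.12 to -0.04. Of all alternative values for levels, pairs and counts of members, those above included, 41 stayed within their tolerance, 18 moved and 2 reversed. The tolerance was the spread between the animals for levels and pairs, and 1.5 times for counts. For the median ratio between the libraries it was the median half-width of the counting intervals, 0.09. Values from leaving out 1 library stay within the spread by construction and are among the 41. The share of the leading transcript moved by more than the spread in 39 of 49 genes in the read-based table. The construction behind the reversals is given above. The moves under rescaled TPM and under a pseudocount of 1 TPM also follow from the construction of those alternatives. For the other moves the cause was not tested. Depth limits Psma8, Psmb8, Psmb9, Psmb11, Psmc3ip and Psme2b, with under 100 counts in each library.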
